A study of Mus musculus with 6 samples.

Results

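The step from day 2 to day 4 of differentiation in C2C12 cells, a mouse skeletal myoblast line, was read from 2 of the 6 arrays of the series. C2C12 myoblasts leave the cell cycle, line up and fuse into multinucleated myotubes once they are confluent and serum is lowered. The day 2 and day 4 cultures were parental cells with no added vector. Both had grown to confluence in DMEM with 10% fetal bovine serum and were then held in DMEM with 2% horse serum, which was renewed every 2 days, for 2 days in one culture and 4 in the other. Total RNA of each culture was made into labelled cRNA, and 10 ug was hybridised to an Affymetrix mouse 430 2.0 array. The other 4 arrays held parental cells in growth medium, parental cells at day 0, sampled right after the switch to low serum, and 2 stable C2C12 lines at day 0. One stable line carried a short hairpin against Rp58 (shRp58), a transcriptional repressor now named Zbtb18, and the other a control that the labels call a LacZ vector in one field and a control hairpin in another, named the control vector below. The labels do not say whether each stable line was 1 clone or a pool.

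Each group held 1 array, so every difference below is between single arrays, with no replicate error and no p-value, and precision is limited by their number. Values are log2 RMA units, in which 1 unit is a 2-fold difference in hybridisation signal. RMA is the method that turns the short probes of a probe set into 1 value for each transcript. The day 4 minus day 2 difference of a gene is given after subtraction of the median difference of all 18194 named genes, which was -0.02. Levels are compared between arrays for the same gene. The exception is the summed signal of some marker lists, which adds levels of different genes.

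A muscle fibre is built from sarcomeres, in which thick filaments of myosin pull on thin filaments of actin anchored at the Z-disc, and contraction starts when calcium leaves the sarcoplasmic reticulum. Muscle replaces its myosin heavy chains in sequence as it matures, from embryonic to neonatal to adult forms. Cells also have transcription programmes that answer amino acid shortage, through the factor Atf4, and oxidants or reactive chemicals, through the factor Nfe2l2.

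A gene was kept if it read at least 7.95, the median of all deposited values, on at least 1 of the 6 arrays. Of 13242 such genes, 110 were at least 2-fold higher at day 4 (0.831%) and 97 at least 2-fold lower (0.733%). Among the 12323 genes at or above that level on both arrays the counts were 92 (0.747%) and 74 (0.601%). The median centred difference of these kept genes was -0.02, and 47.0% of them stood above 0. The robust standard deviation was 0.23, and the central 95% ran from -0.69 to 0.62. Of the 110 higher genes, 36 had another probe set at or above 7.95, and for 35 of the 36 every such probe set differed in the same direction. Of the 97 lower genes, 37 had another, and it was so for 34. None of these probe sets was 2-fold apart in the opposite direction. Where other probe sets of a named gene are given below, they include those under the level. The genes nearest the 2-fold line were Fxyd6 at 1.01 inside and Dcaf8l at 0.99 outside on the higher side. On the lower side Gpx3 lay inside at -1.01, and Dab2 lay just outside, within rounding of the line.

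The gene furthest above 0 was Cd24a, which encodes a small glycosylated surface protein. It read 7.02 at day 2 and 10.69 at day 4, a centred difference of 3.69 or 12.9-fold, and its other probe sets gave 3.18 and 3.78. The day 2 value lay below the 7.95 level, so the size of its difference rests on a dim probe set on that array. The gene furthest below 0 was Gsta2, a glutathione transferase, at 11.07 at day 2 and 7.22 at day 4, which is 14.2-fold lower (-3.83). Here the dim side was day 4.

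The 18 probe sets for hybridisation controls, transcripts added during the assay, differed by -0.06 to 0.15 between the arrays. The 3′ minus 5′ difference of Actb was 0.24 at day 2 and 0.22 at day 4, and that of Gapdh was 0.12 and -0.01. The array medians were 8.27 and 8.26, and the highest values 15.06 and 15.09. All 10 muscle identity markers were above the level on both arrays, among them Myog at 14.33 and 14.48, Acta1 at 14.90 and 14.93 and Des at 13.97 and 13.94. Of 14 matched leukocyte and endothelial markers, 5 passed the level, with differences of -0.01 to 0.11. These were Csf1r (9.99 and 10.09), Cd3e (9.87 and 9.92), Adgre1 (9.51 and 9.49), Kdr (9.46 and 9.44) and Lyz2 (8.73 and 8.77). Among those that did not pass were Ptprc (5.54 and 5.80), Pecam1 (5.87 and 5.83) and Cdh5 (7.05 and 7.03). The part of such cells in the cultures was not tested.

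**Figure D1:**
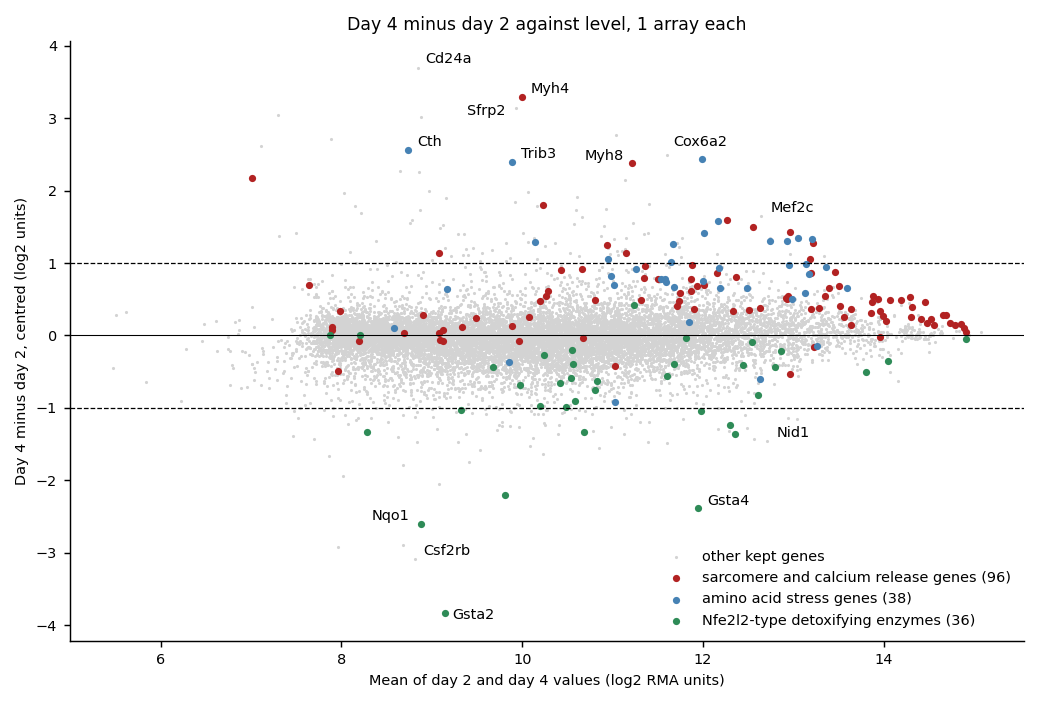
Centred day 4 minus day 2 difference (y axis, log2 units) against the mean of the day 2 and day 4 values (x axis, log2 RMA units) for 13242 kept genes, 1 array a side; dashed lines mark 2-fold. Sarcomere and calcium release genes lie mostly above 0, amino acid stress genes above 0 with Cth, Fgf21 and Trib3 past 2.3 log2 units, and Nfe2l2-type enzymes mostly below 0, down to Gsta2 at -3.83.

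Promoter sequences are shown for genes of the 2 largest groups on the higher side, amino acid stress genes and muscle genes, because short motifs tied to the factors of each group occur there. They come from RefSeq (GRCm38.p6) and cover the 250 bases before the annotated start site, written 5′ to 3′ on the gene's strand. The motifs were picked after the values had been seen. Capitals mark TGATGNAA, the form read by Atf4 with a C/EBP partner, on either strand, so that TTGCATCA is a match on the opposite strand. The genes are the 3 with the largest differences among the 4 stress genes at least 2-fold higher that have 1 window with a match. Fgf21 lies at chr7:45615491-45615740 (minus strand), Chac1 at chr2:119350992-119351241 (plus strand) and Asns at chr6:7693210-7693459 (minus strand).
Fgf21: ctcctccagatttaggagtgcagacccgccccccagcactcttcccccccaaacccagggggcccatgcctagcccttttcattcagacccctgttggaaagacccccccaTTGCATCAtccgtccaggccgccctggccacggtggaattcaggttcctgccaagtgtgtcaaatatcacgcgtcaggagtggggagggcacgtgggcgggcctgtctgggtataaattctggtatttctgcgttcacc
Chac1: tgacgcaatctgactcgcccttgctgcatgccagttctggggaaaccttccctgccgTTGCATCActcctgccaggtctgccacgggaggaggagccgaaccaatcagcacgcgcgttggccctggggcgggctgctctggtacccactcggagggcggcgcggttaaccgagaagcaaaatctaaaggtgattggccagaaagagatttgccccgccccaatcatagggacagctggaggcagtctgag
Asns: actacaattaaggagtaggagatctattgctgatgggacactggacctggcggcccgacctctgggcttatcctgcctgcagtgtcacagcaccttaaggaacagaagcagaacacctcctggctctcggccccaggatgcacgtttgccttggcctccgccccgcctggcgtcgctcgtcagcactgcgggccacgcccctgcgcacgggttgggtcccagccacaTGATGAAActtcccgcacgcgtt
The match began 139 bases before the start site in Fgf21, 193 bases before it in Chac1 and 23 bases before it in Asns. The Chac1 window also holds CAGCTG, left here in lower case.

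For the muscle genes, capitals mark CAGCTG, an E-box of the kind bound by MyoD family factors, which reads the same on both strands. The genes are again the 3 with the largest differences, here among 10 genes of the sarcomere, calcium, glycolysis and membrane lists with a match. Myh4 lies at chr11:67237562-67237811 (plus strand), Cav3 at chr6:112459255-112459504 (plus strand) and Casq1 at chr1:172219896-172220145 (minus strand).
Myh4: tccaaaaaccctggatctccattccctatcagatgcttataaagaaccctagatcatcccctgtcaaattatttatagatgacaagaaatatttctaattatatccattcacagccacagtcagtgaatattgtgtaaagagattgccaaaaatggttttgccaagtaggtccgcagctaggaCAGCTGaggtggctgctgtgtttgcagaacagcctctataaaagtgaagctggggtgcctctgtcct
Cav3: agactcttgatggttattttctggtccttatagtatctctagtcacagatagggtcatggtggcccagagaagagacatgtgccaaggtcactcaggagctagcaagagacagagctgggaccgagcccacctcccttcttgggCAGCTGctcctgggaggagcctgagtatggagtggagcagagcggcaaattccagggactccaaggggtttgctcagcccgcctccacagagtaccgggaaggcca
Casq1: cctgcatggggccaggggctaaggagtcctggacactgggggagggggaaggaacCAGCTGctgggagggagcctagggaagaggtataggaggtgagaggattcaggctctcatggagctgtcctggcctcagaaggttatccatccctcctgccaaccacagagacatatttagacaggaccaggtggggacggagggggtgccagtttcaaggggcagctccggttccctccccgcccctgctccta
The match began 67 bases before the start site in Myh4, 106 in Cav3 and 195 in Casq1.

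Of the 13242 kept genes, 10631 had at least 1 such window. TGATGNAA was found in 2.60% of these genes and in 3.45% of all 32851 RefSeq windows of the same length. It was found in 9 of 32 amino acid stress genes (28.1%), which were Fgf21, Chac1, Asns, Atf3, Tars, Nupr1, Aars, Gars and Vldlr. That list was made up of Atf4 targets, so its share is no result about day 4. Among all genes at least 2-fold higher the motif was found in 7 of 87 (8.05%), and among those at least 2-fold lower in 4 of 72 (5.56%). CAGCTG was found in 14.7% of the kept genes and in 13.0% of all windows. Among the genes at least 2-fold higher it was found in 24 of 87 (27.6%), among those at least 2-fold lower in 12 of 72 (16.7%), and among genes of the sarcomere, calcium release and glycolysis lists in 35 of 91 (38.5%). For the antioxidant type of motif, TGACNNNGC on either strand, the shares were 13.5% of the kept genes, 10.2% of all windows and 6 of 30 Nfe2l2-type genes, beside 8 of 32 amino acid stress genes, 4 of 18 endoplasmic reticulum chaperones and 9 of 45 mitosis genes. Overlap between matches of different motifs was not counted, and a match describes letters in a window, not binding.

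The myosin heavy chains, the motor proteins of the thick filament, held the largest differences of any sarcomere group. Of 9 matched genes 7 were kept, 6 stood above 0, 3 were at least 2-fold higher and none was 2-fold lower, with a median of 0.87. That median was 0.34 with no filter on low values and 1.18 over genes at the level on both arrays. Over growth medium, day 0, day 2 and day 4, Myh4, a fast adult form, read 5.54, 6.04, 8.36 and 11.64. Its day 4 minus day 2 difference was 3.29 (9.80-fold), and its other probe set gave 2.03. Myh8, the neonatal form, read 5.86, 6.53, 10.03 and 12.39, a difference of 2.37 (5.18-fold). Both were below the level through day 0 and highest at day 4. Myh7, the slow form, read 7.11, 8.66, 11.81 and 13.29, a difference of 1.49 (2.82-fold). Myh1, another fast adult form, read 13.04 and 13.89 at days 2 and 4, which is 0.87 higher (0.39 and 1.41 from its other probe sets). Myh3, the embryonic form, already read 14.40 at day 2 and 14.55 at day 4, which is 0.17 higher. Myh2 and Myh6 did not reach the level on any array. Myhas, a transcript annotated between Myh1 and Myh4 on chromosome 11, read 8.08, 8.64, 9.73 and 11.45, a difference of 1.74. In whole cultures, more fibres and more RNA per fibre cannot be told apart.

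The other thick filament genes differed less. Of 12 kept myosin light chain and binding protein genes, 11 stood above 0 and 1 was at least 2-fold higher, with a median of 0.22. That gene was Mybpc1, slow myosin binding protein C, at 8.52 and 9.64 (1.14), and Mybpc2, the fast form, read 9.98 and 10.87 (0.91). The fast light chains Myl1 and Mylpf, which already read 14.78 and 14.84 at day 2, stood 0.16 and 0.11 higher.

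Of 18 kept thin filament genes, 16 stood above 0 and 1 was at least 2-fold higher (median 0.29). Lmod3, a leiomodin that starts actin filaments, read 6.81, 9.39, 11.48 and 13.06 over the 4 time points, 1.59 higher at day 4 than at day 2. The related Lmod2 stood 0.81 higher, and the pointed-end caps Tmod1 and Tmod4 0.80 and 0.70 higher. Tmod4 read 7.30 and 7.98 at days 2 and 4. It passed the level on the day 4 array alone, so it was kept and counted only through that array. The troponins and skeletal actin, which read above 13.8 at day 2 apart from cardiac Tnni3, stood 0.05 to 0.52 higher. Tnni3, the cardiac inhibitory subunit, read 8.22 and 7.71 (-0.49). Lmod2, Lmod3 and Tmod1 all had larger differences than any troponin. However, the troponins other than Tnni3, and skeletal actin, read close to the highest array values of 15.06 and 15.09. Their differences may be understated there, which was not tested.

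Of 32 kept genes of the Z-disc, the M-band and titin's partners, 28 stood above 0, 4 were at least 2-fold higher and none was 2-fold lower (median 0.48). Myot, myotilin of the Z-disc, read 5.92, 5.74, 5.94 and 8.09, so it passed the level on the day 4 array alone (2.17). Actn2, an alpha-actinin of striated muscle, read 10.32 and 11.56 (1.25), and Actn3, the alpha-actinin of fast fibres, 13.70 and 14.18 (0.50). Tcap, the cap of titin, stood 1.13 higher and Cavin4, a caveolar protein of muscle, 1.05 higher. Ttn stood 0.21 higher, and Des, the muscle intermediate filament, 0.02 lower (-0.02).

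Calcium handling genes showed a difference between paired isoforms. Of 27 kept genes, 25 stood above 0 and 3 were at least 2-fold higher (median 0.48). Pvalb, the soluble calcium buffer of fast fibres, read 8.03, 7.97, 9.34 and 11.13, which is 1.81 higher at day 4 than at day 2. Casq1, the calcium-storing calsequestrin of fast fibres, read 10.11, 9.23, 12.25 and 13.67 (1.43), and Casq2, the form of slow fibres and heart, read 14.19 and 14.43 at days 2 and 4 (0.25). Casq2 read close to the highest array values, so its difference may be understated, which was not tested. Atp2a1, the calcium pump of fast fibres, read 8.74, 11.34, 12.58 and 13.84 (1.27). Atp2a2, the pump of slow fibres, heart and other cells, read 13.24 and 12.69 at days 2 and 4 (-0.53). The fast pump was thus higher and the slow pump lower on the day 4 array. The release channel Ryr1 stood 0.38 higher, the voltage sensor subunit Cacna1s 0.77 and the channel partner Trdn 0.96 (0.04 to 1.67 from its other probe sets).

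**Figure D2:**
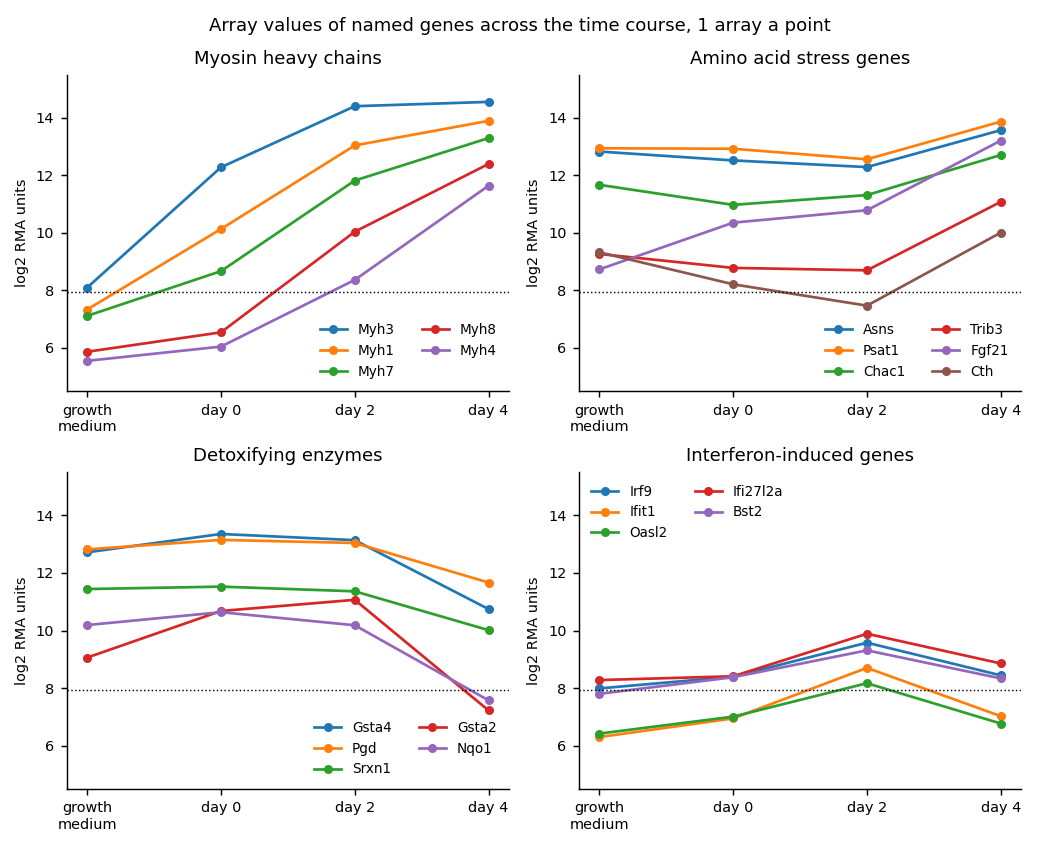
Array values (y axis, log2 RMA units) of named genes in growth medium and at days 0, 2 and 4 (x axis), 1 array a point; the dotted line is the 7.95 level. Myh8 and Myh4 stand highest at day 4, the stress genes Cth and Trib3 are lowest at day 2 and highest at day 4, and the detoxifying and interferon-induced genes shown stand lower at day 4 than at day 2.

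Of 23 kept genes of glycolysis, glycogen and creatine, 18 stood above 0, 3 were at least 2-fold higher and 1 at least 2-fold lower (median 0.27). Ckm, muscle creatine kinase, read 8.82, 10.94, 12.80 and 13.88 over the time course (1.10 between days 4 and 2, with 0.28 from its other probe set), while Ckb, the brain form, read 11.20, 12.78, 13.63 and 12.46 (-1.15). The other 2 were Pgam2, muscle phosphoglycerate mutase, at 11.60 and 12.70 (1.12) and Pygm, muscle glycogen phosphorylase, at 11.22 and 12.29 (1.09). Prkag3, a regulatory subunit of AMP-activated kinase found mainly in fast muscle, read 8.19, 8.96, 10.51 and 12.30 (1.81).

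Among 17 kept oxidative phosphorylation genes the median was 0.11, and 2 were at least 2-fold higher. Both were subunits of cytochrome oxidase in the form made by heart and muscle. Cox6a2 read 8.91, 9.16, 10.37 and 12.84 (2.48, 5.60-fold, with 2.40 from its other probe set), and its general counterpart Cox6a1 read 14.08 and 13.88 at days 2 and 4 (-0.19). Cox8b read 10.66 and 12.04 (1.39), against 13.52 and 13.55 for the general form Cox8a (0.05). Another pair did not follow, as Cox7a1, the muscle form, read 8.01 and 8.14 (0.15) and Cox7a2 14.04 and 14.03 (0.01).

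Of 19 kept genes of fatty acid handling and oxygen carriage, 1 was at least 2-fold higher and 3 at least 2-fold lower, with a median of 0.04. Cd36, a fatty acid transporter, read 5.27, 6.29, 9.80 and 11.33 (1.54). Lpl, the lipoprotein lipase, read 13.28 and 11.84 (-1.43), Pdk4, which blocks pyruvate entry into mitochondria, 10.85 and 9.63 (-1.20), and Plin2, a lipid droplet coat, 13.52 and 12.37 (-1.14). Lpl is also the 1 adipocyte marker that was 2-fold lower. Of 12 matched adipocyte markers 7 were kept, with a median difference of -0.31. The signal summed over all 12 was 13.81 at day 2 and 12.81 at day 4 on the log2 scale, but 12.10 and 11.78 over the 11 without Lpl. Cebpa read 10.82 and 10.23 (-0.58), Pparg 8.64 and 8.16 (-0.46), Plin4 9.26 and 8.93 (-0.31) and Retn 9.24 and 9.12 (-0.10). Fabp4, below the level at day 2, was the 1 kept marker above 0 (0.48). Adipoq, at 5.91 and 5.76, did not reach the level. The part of such cells in these values was not tested.

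At the muscle membrane, 5 of 28 kept fusion and adhesion genes were at least 2-fold higher and none was 2-fold lower (median 0.21). Besides Cd24a and Cavin4 these were Cav3, muscle caveolin, at 7.05, 7.54, 9.66 and 11.55 over the time course (1.90 between days 4 and 2), Tmem182, a muscle membrane protein, at 12.28 and 13.57 (1.31), and Itga4, an integrin, at 8.80 and 9.89 (1.11, with -0.03 to 0.69 from its other probe sets). The fusion proteins Mymk and Mymx stood 0.42 and 0.86 higher. Of 11 kept neuromuscular junction genes none was 2-fold apart (median 0.13), and the acetylcholine receptor subunits ran from 0.04 for Chrnb1 to 0.92 for Chrnd. Asb14, a muscle partner of ubiquitin ligases, read 5.81 and 8.41 (2.62). It passed the level on the day 4 array alone and was kept only through that array.

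Transcription factors of muscle had a median near 0 (0.01 over 31 kept genes). Mef2c, a MADS box factor that drives muscle genes, read 8.19, 9.79, 11.83 and 13.46 over the time course, which is 1.65 higher at day 4 than at day 2, against 0.12 for both Mef2a and Mef2d. Myf6, a member of the MyoD family, read 7.97, 7.78, 7.74 and 9.03 (1.31), so that the earlier arrays were alike and near the level. Myod1 stood 0.40 higher, Myog 0.17 higher and Myf5 0.41 lower (-0.41). Among the Id proteins, inhibitors of these factors, Id3 read 9.20 and 10.00 (0.82), Id1 stood 0.16 higher and Id2 0.24 lower (-0.24). Zbtb18, the hairpin's target in the stable lines, stood 0.21 higher.

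**Figure D3:**
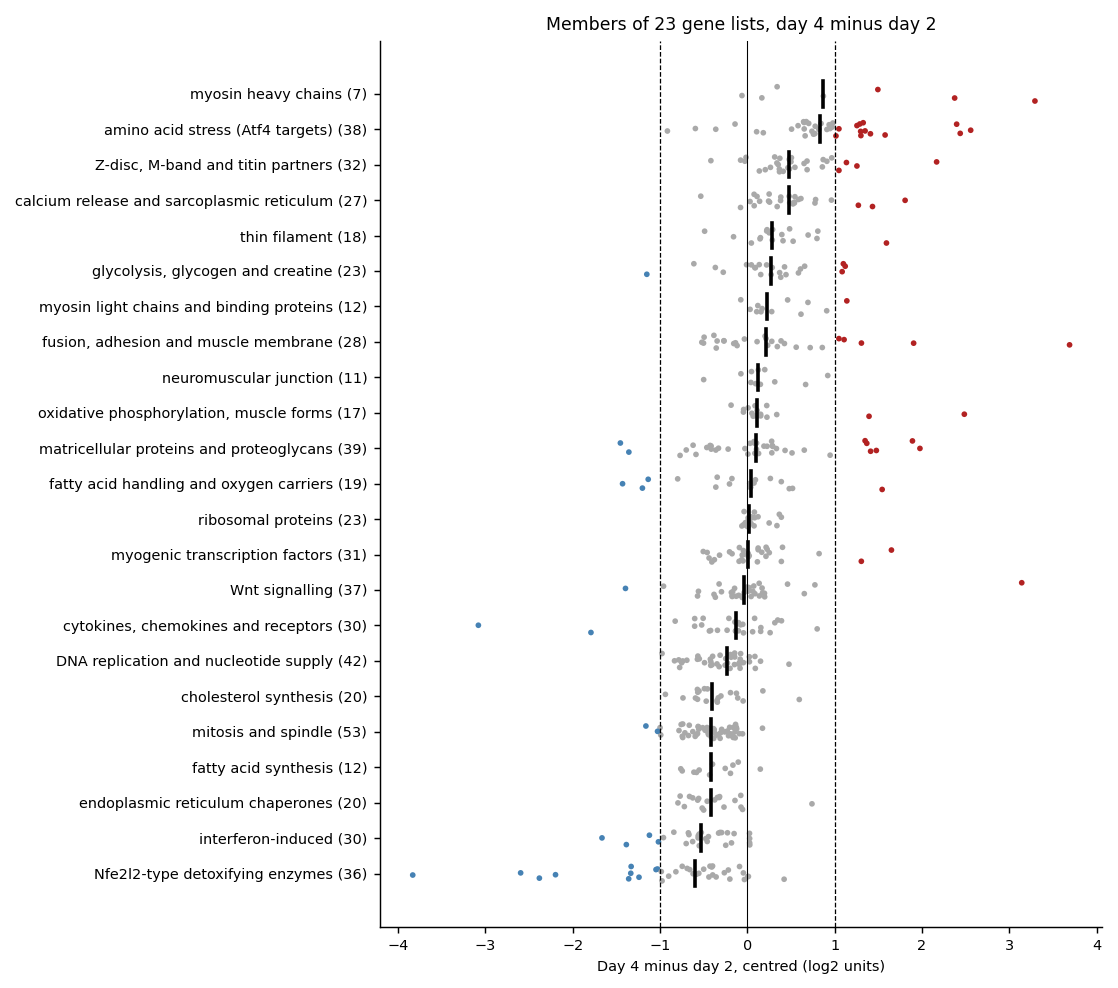
Centred day 4 minus day 2 differences (x axis, log2 units) of the kept members of 23 gene lists, with the number of members beside each name; points are genes, black bars list medians, red points at least 2-fold higher and blue points at least 2-fold lower. Medians run from 0.87 for myosin heavy chains and 0.83 for amino acid stress genes (0.34 and 0.78 with no filter on low values, which turns their order) to -0.60 for Nfe2l2-type detoxifying enzymes.

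The list with the most genes at least 2-fold higher was the amino acid stress response, which Atf4 switches on when amino acids run short. Of 43 listed genes 41 were matched and 38 kept; 13 were at least 2-fold higher, none was 2-fold lower, 34 stood above 0, and the median was 0.83. Cth, which makes cysteine from cystathionine, read 9.32, 8.21, 7.46 and 10.00 over the time course. It was lowest at day 2, below the level, and highest at day 4 (2.56, 5.89-fold). Fgf21, a secreted stress hormone, read 8.72, 10.35, 10.78 and 13.20 (2.44, 5.42-fold). Trib3, a pseudokinase that restrains the response, read 9.26, 8.78, 8.69 and 11.07 (2.40, 5.27-fold), and its other probe set gave 2.73.

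Regulators of the response stood higher too. Atf5, a factor of the same family as Atf4, read 11.41, 11.33, 11.39 and 12.95 (1.58), level over the first 3 arrays. Atf3 read 9.51 and 10.78 at days 2 and 4 (1.29), and Atf4 itself 13.27 and 13.91 (0.65). The other 2 Atf4 probe sets gave -0.26 and 0.90, so they differed in direction. Ddit3, a factor tied to cell death under stress, read 10.67 and 11.36 (0.70, with 0.27 from its other probe set). Chac1, which breaks down glutathione, read 11.67, 10.97, 11.31 and 12.70 (1.41). The amino acid transporter subunits Slc7a5 and Slc3a2, which work as a pair, stood 1.35 and 0.98 higher. Asns, asparagine synthetase, read 12.82, 12.51, 12.28 and 13.57 (1.30). Ddit4, an inhibitor of mTORC1 that also answers hypoxia and glucocorticoids, read 11.49 and 10.56 (-0.92), the lowest value in the group, and Cebpb (-0.60), Stc2 (-0.36) and Slc38a2 (-0.14) also stood below 0.

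The enzymes that make serine and pass its carbon to folate, and the tRNA synthetases that load amino acids on tRNA, were listed after their values had been seen. All 12 kept serine and one-carbon genes stood above 0 and 5 were at least 2-fold higher (median 0.66). Psph, the last enzyme of serine synthesis, read 11.58, 10.87, 10.07 and 11.79 (1.74), and Psat1, the step before it, read 12.94, 12.92, 12.55 and 13.86 (1.33). Phgdh, the first step, stood 0.84 higher. In the folate cycle the mitochondrial enzymes Aldh1l2, Mthfd2 and Shmt2 stood 1.55, 1.30 and 1.26 higher (the other Shmt2 probe sets gave 0.31 to 1.54), while the cytosolic Mthfd1 and Shmt1 stood 0.07 and 0.03 higher.

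Of 19 kept cytosolic tRNA synthetases, 18 stood above 0 and 2 were at least 2-fold higher (median 0.66). These were Lars, for leucine, at 11.11 and 12.43 (1.34) and Cars, for cysteine, at 10.44 and 11.47 (1.05, but 0.02 from its other probe set). Qars, for glutamine, was the exception at 12.35 and 12.15 (-0.18). Of 15 kept mitochondrial synthetases, 4 stood above 0 and none was 2-fold apart (median -0.12), with a range of -0.22 to 0.52. The cytosolic list shares members with the amino acid stress list, so the 2 counts are not separate.

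**Figure D4:**
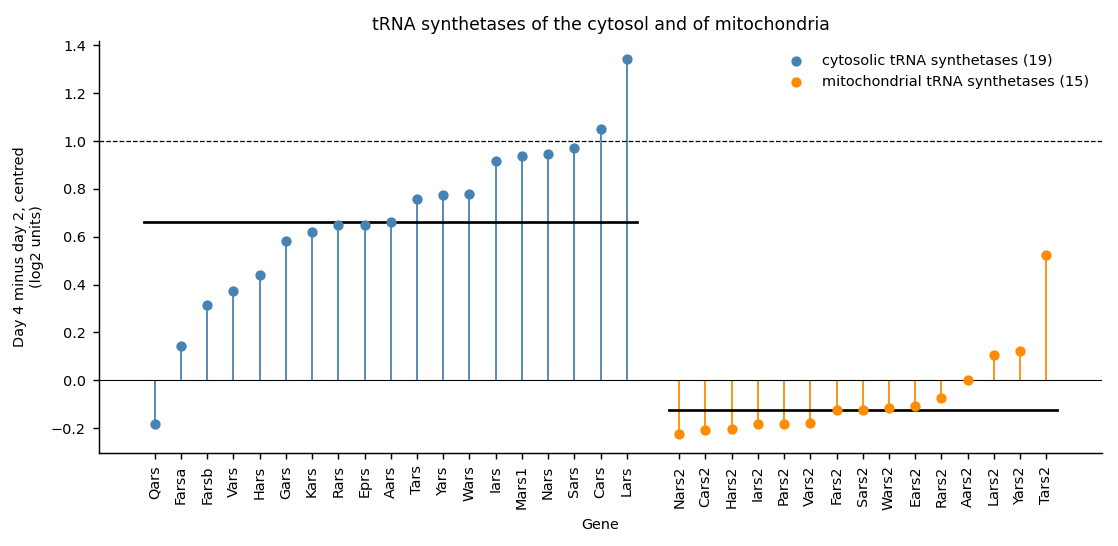
Centred day 4 minus day 2 difference (y axis, log2 units) of 19 cytosolic and 15 mitochondrial tRNA synthetase genes (x axis, in order of their values), 1 array a side; black lines are list medians and the dashed line marks 2-fold. Cytosolic genes run from -0.18 (Qars) to 1.34 (Lars) around a median of 0.66, and mitochondrial genes from -0.22 (Nars2) to 0.52 (Tars2) around -0.12.

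The chaperones of the endoplasmic reticulum, which answer unfolded protein, stood on the other side. Of 20 kept genes, 19 were below 0 and none was 2-fold apart (median -0.42). Hspa5, the main luminal chaperone, read 14.33 and 13.81 (-0.50), Dnajc3, a co-chaperone, 11.61 and 10.80 (-0.79) and Manf, a secreted protein of the same response, 12.68 and 11.90 (-0.77). Xbp1, a transcription factor of that response, read 13.13 and 13.06 (-0.05). Herpud1, a membrane protein of protein disposal, was the 1 gene above 0, at 12.26 and 12.98 (0.74).

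The list with the most genes at least 2-fold lower was the Nfe2l2-type detoxifying enzymes. Of 36 kept genes, 33 stood below 0, 10 were at least 2-fold lower and none was 2-fold higher (median -0.60). Gsta2 read 9.06, 10.68, 11.07 and 7.22 over the time course, so its day 4 value was below that in growth medium. Nqo1, a quinone reductase, read 10.19, 10.64, 10.18 and 7.57 (-2.60, 6.05-fold lower). Gsta4, a glutathione transferase for lipid aldehydes, read 12.72, 13.36, 13.14 and 10.74 (-2.38, 5.21-fold lower), well above the level throughout. Aldh3a1, an aldehyde dehydrogenase, read 9.29, 11.00, 10.91 and 8.70 (-2.20). For these 4 genes the day 4 value was the lowest of the 4 time points.

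The remaining 6 were Pgd, an NADPH-making enzyme of the pentose phosphate pathway, at 13.04 and 11.67 (-1.36), Srxn1, sulfiredoxin, at 11.36 and 10.01 (-1.33), Abcc4, an export pump, at 8.96 and 7.61 (-1.33), Gstm1 at 12.92 and 11.67 (-1.24), Ephx1, an epoxide hydrolase, at 12.51 and 11.44 (-1.05), and Gclm, the modifier subunit of the enzyme that begins glutathione synthesis, at 9.84 and 8.80 (-1.03). The other 3 Pgd probe sets gave -1.36 to -1.29, those of Srxn1 -2.21 to -0.14, those of Gstm1 -1.23 to -0.70, and that of Gclm -0.57. The catalytic subunit Gclc stood at -0.90 and thioredoxin reductase Txnrd1 at -0.82, with 0.03 and 0.06 from the other Txnrd1 probe sets. Nfe2l2 itself read 12.97 and 12.74 (-0.22) and its inhibitor Keap1 10.77 and 10.35 (-0.40), both closer to 0 than those enzymes. Nfe2l2 and Keap1 are regulators rather than detoxifying enzymes, but both were on the list and in its counts. Gss, which completes glutathione, was the exception on the other side at 0.42.

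Interferon-induced genes also stood lower at day 4. Of 30 kept genes, 26 were below 0, 4 at least 2-fold lower and none 2-fold higher (median -0.54). Ifit1, an antiviral RNA-binding protein, read 6.29, 6.94, 8.70 and 7.02 (-1.66), above the level at day 2 alone of the 4 time points. Irf9, which carries the interferon signal to DNA, read 9.58 and 8.44 at days 2 and 4 (-1.12), Oasl2 8.17 and 6.77 (-1.39) and Ifi27l2a 9.89 and 8.85 (-1.02). Rsad2 and Oas2, further members, stood 0.03 and 0.02 above 0. The day 4 values of Ifit1, Oasl2 and Irf9 lay within 0.5 units of their day 0 values.

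Lipid synthesis differed by less than 2-fold in every kept gene. Of 20 cholesterol synthesis genes 18 stood below 0 (median -0.40), from Mvd, mevalonate diphosphate decarboxylase, at -0.94 to Dhcr7, the last enzyme of one branch, at 0.59. Of 12 fatty acid synthesis genes 11 stood below 0 (median -0.42), with Fasn, fatty acid synthase, at -0.43 and the desaturase Fads2 at -0.76.

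Cell division genes also stood lower at day 4. Of 53 kept mitosis genes 52 stood below 0 and 2 were at least 2-fold lower (median -0.41). Bub1, a checkpoint kinase, read 8.75 and 7.57 (-1.16) and Trip13, a checkpoint ATPase, 8.33 and 7.29 (-1.03), and both day 4 values lay below the level. Their other probe sets were not 2-fold apart, at -0.16 for Bub1 and -0.20 and -0.13 for Trip13. Top2a, the topoisomerase of dividing cells, read 10.21 and 9.20 (-0.99, with -0.38 and -0.17 from its other probe sets) and Mki67, a proliferation marker, 10.03 and 9.23 (-0.78). Of 42 DNA replication genes 36 stood below 0 and none was 2-fold apart (median -0.24). Cdkn1c, an inhibitor of cyclin-dependent kinases encoded by an imprinted gene, read 7.34, 7.74, 7.74 and 9.98 (2.26, 4.79-fold). It passed the level on the day 4 array alone and was kept only through that array, so the size of its difference is inexact. The inhibitor Cdkn1a, at 14.24 and 14.51, stood 0.28 higher and Cdkn1b 0.03 higher.

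Secreted signals held some of the largest single differences, while their lists had medians near 0. Sfrp2, a secreted Wnt-binding protein, read 7.89, 7.34, 8.37 and 11.50 (3.14, 8.83-fold), in a Wnt list of 37 kept genes with a median of -0.04. Apcdd1, a membrane inhibitor of Wnt, read 9.33 and 7.92 (-1.40, with -1.46 to 0.11 from its other probe sets). Igf1, the insulin-like growth factor of muscle growth, read 8.56, 8.08, 9.00 and 10.83 (1.84), and its other probe sets gave 1.08 to 2.96. Igf2 stood 0.43 higher, and Igfbp2, a binding protein of both, read 13.13 and 11.84 (-1.28). Bmp4, a bone morphogenetic protein, read 8.86 and 10.05 (1.20) and Grem1, a BMP antagonist, 12.13 and 10.65 (-1.46), so the ligand was higher and the antagonist lower on the day 4 array. Hgf, the growth factor that activates satellite cells, read 8.76, 10.21, 10.34 and 8.74 (-1.58), and its other probe sets gave -1.60 and -1.61.

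Csf2rb, the shared receptor subunit for several blood cell cytokines, read 7.73, 9.45, 10.36 and 7.26 (-3.08, 8.46-fold lower), with -2.36 from its other probe set. The chemokine Cxcl5 read 9.58 and 7.77 (-1.79). The remaining 28 of 30 kept cytokine and receptor genes were less than 2-fold apart. Cck, a peptide hormone of gut and brain, read 7.62, 9.02, 9.42 and 6.49 (-2.92), and Bex1, a small protein found in neurons and regenerating muscle, read 5.24, 5.43, 5.79 and 8.80 (3.04). Both were on the neuronal list, whose 15 kept genes had a median of -0.15, 0.07 over the 10 measured on both arrays. Bex1 passed the level on the day 4 array alone, so it was kept and counted only through that array.

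Matrix genes differed in both directions. Of 39 kept matricellular proteins and proteoglycans, 6 were at least 2-fold higher and 2 at least 2-fold lower (median 0.10). Cilp, a matrix protein first known from cartilage, read 6.38, 6.25, 9.08 and 11.04 (1.98). Mfap5, of elastic microfibrils, read 8.22 and 10.10 (1.89, 0.59 from its other probe set), and Postn, periostin, 12.08 and 13.41 (1.35). The small leucine-rich proteoglycans Lum, Aspn and Omd read 8.36 and 9.82, 9.31 and 10.71, and 6.64 and 7.99 (1.48, 1.41 and 1.37). Omd passed the level on the day 4 array alone, so it was kept and counted only through that array. Nid1, a basement membrane linker, read 13.17, 13.40, 13.45 and 11.98 (-1.45), and Thbs2, a thrombospondin, 11.81 and 10.44 (-1.36). Of 25 kept collagens 1 was 2-fold higher, Col8a1 at 10.42 and 11.53 (1.12), and the main fibrillar genes Col1a1, Col1a2 and Col3a1 stood 0.64, 0.08 and 0.06 higher.

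Of 15 matched fibroblast and tendon markers 9 were kept, and the signal summed over all 15 was 15.98 at day 2 and 15.94 at day 4 on the log2 scale. Most of that sum came from Col3a1 (14.61 and 14.66) and S100a4 (14.56 and 14.44), so it says little about the other members. The kept markers differed both ways, with Lum at 1.48 and Fap, a membrane protease of activated fibroblasts, at 9.00 and 7.04 (-1.94). Pdgfra, a growth factor receptor of mesenchymal cells, read 10.42 and 9.46 (-0.94, with -0.34 and -0.21 from its other probe sets). The part of such cells in the matrix values was not tested. As a contrast, the 23 kept ribosomal protein genes ran from -0.06 to 0.39 with a median of 0.01, which lay below 0, down to -0.06, without centring or after quantile or loess normalization.

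The 207 genes at least 2-fold apart (1.56% of those kept) were set beside the 2 comparisons of the series that share no array with days 2 and 4. In day 0 minus growth medium, the step through confluence, 356 of all kept genes (2.69%) stood at least 2-fold higher and 47 (0.355%) at least 2-fold lower, and 58.4% stood above 0. Of the 97 genes lower at day 4, 83 (85.6%) had stood higher at day 0 than in growth medium, 26 of them at least 2-fold, with a median of 0.56. Csf2rb, Gsta2, Fap, Rgs2 and Hgf were among those 26, at 1.70, 1.60, 1.98, 1.96 and 1.42. Rgs2 is a regulator of G protein signalling and read 8.37, 10.36, 10.29 and 8.53 over the time course, and its other probe sets gave -2.26 to -0.16 for day 4 minus day 2. Of the 110 genes higher at day 4, 64 (58.2%) stood above 0 in that step (median 0.11), a share near that of all kept genes. Across the 13242 genes, which are not independent replicates, the 2 comparisons had a Pearson correlation of -0.04 and a Spearman correlation of -0.07.

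In shRp58 minus control vector at day 0, 7 of the kept genes (0.0529%) stood at least 2-fold higher and 84 (0.634%) at least 2-fold lower, and 53.9% stood below 0. Of the 110 genes higher at day 4, 92 (83.6%) stood below 0 in the hairpin line, 26 were at least 2-fold lower there and none was 2-fold higher, with a median of -0.48. Of the 97 genes lower at day 4, 51 (52.6%) stood below 0 and the median was -0.07. Across all kept genes the Pearson correlation was -0.24 and the Spearman correlation -0.11.

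The groups had different medians in that comparison. The 7 myosin heavy chains had a median of -1.62 in shRp58 minus control vector, with Myh8 at -2.13, Myh7 at -2.01 and Myh4 at -1.77, though Myh8 and Myh4 read 7.53 and 7.03 in the control line, on arrays whose median was 7.15. Thin filament genes had a median of -0.93 and Z-disc genes of -0.81. For amino acid stress genes the median was -0.16, with Fgf21 at -1.26, Atf5 at -0.83, Cth at -0.34 and Trib3 at -0.07. Of the 38 kept stress genes, 34 stood below 0 and 4 above, beside 53.9% of all kept genes below 0. The Nfe2l2-type enzymes had a median of 0.05 and the mitosis genes of 0.74, with all 53 above 0. Of the 12 sarcomere and calcium release genes at least 2-fold higher at day 4, 5 were at least 2-fold lower in the hairpin line (Myh8, Myh7, Myh4, Lmod3 and Atp2a1), and of the 13 amino acid stress genes 1 was (Fgf21).

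**Figure D5:**
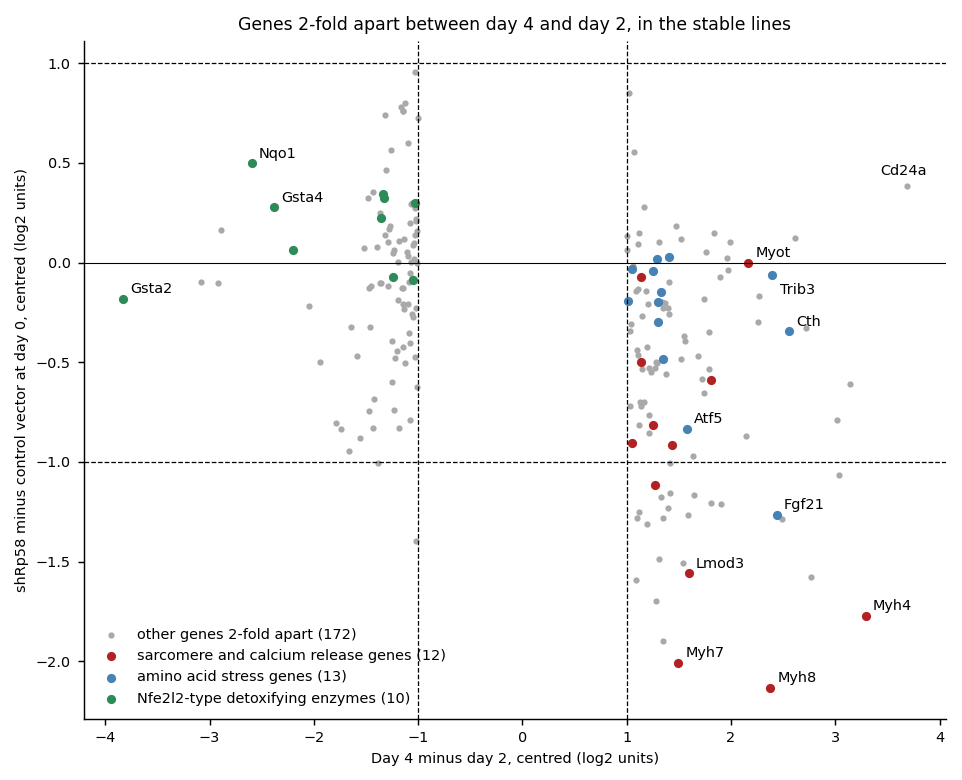
Day 4 minus day 2 (x axis) against shRp58 minus control vector at day 0 (y axis), both centred log2 differences between single arrays that share no array, for 207 genes at least 2-fold apart on the x axis; dashed lines mark 2-fold. Of the 110 genes on the right 92 lie below 0 on the y axis, with Myh8 lowest at -2.13, and of the 97 on the left 51 do.

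The step before, day 2 minus day 0, shares the day 2 array with the comparison described here, so its values are given beside it without a measure of agreement. There 354 of the kept genes (2.67%) stood at least 2-fold higher and 392 (2.96%) at least 2-fold lower. The mitosis genes had a median of -1.97 in that step and -0.41 from day 2 to day 4. For the myosin heavy chains the medians were 2.32 and 0.87, for thin filament genes 1.34 and 0.29, and for calcium handling genes 0.71 and 0.48. For amino acid stress genes they were -0.08 and 0.83, for Nfe2l2-type enzymes -0.11 and -0.60, for interferon-induced genes 0.27 and -0.54, and for endoplasmic reticulum chaperones 0.09 and -0.42.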

How the data were processed

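Total RNA was profiled in 6 C2C12 samples on 1-colour Affymetrix arrays. The deposited values are log2 expression values made by the authors with RMA, per the series' design text; which software was used, and whether normalization was joint, is not given in the sources used here. Arrays of the stable lines had a median of 7.15, below those of the time course, so differences were taken within each set. Sample columns were matched by title, and groups came from the titles.

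Of 45101 probe sets, 34958 had 1 gene in the platform annotation, 932 several and 9211 none; only the first were named, and 34754 matched RefSeq by Entrez ID with 0 symbols changed. Each gene was read from the probe set with the highest mean over the 6 arrays (18194 genes, 9012 with at least 2 probe sets). Genes with a highest value of at least 7.95 were kept. Differences were centred on the median of all genes, and 2-fold apart was the call, with no test. Scripts used Python 3.11.15, numpy 2.4.6, pandas 2.3.3 and statsmodels 0.14.6 (loess) and were tested on simulated data.

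Named genes are the 20 largest and 20 smallest differences among kept genes, the same among 12323 genes measured at or above 7.95 on both arrays, and members of 45 lists (1016 of 1092 listed symbols matched). Members, lists and rules were chosen with earlier results of these data known; 5 lists and the promoter motifs were chosen after these differences were seen. Alternatives were other normalizations, filters, probe set rules and a 1.5-fold threshold. Shared probe set sequence can mix related genes, as for Gpr137b and Gpr137b-ps.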

Additional observations from a re-analysis of the deposited data

How the results depend on the processing

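With 1 array a group, nothing below measures replicate spread, and differences that begin or end below 7.95 are inexact in size. Differences of genes close to the highest array values, such as Myh3, Myl1, Mylpf, Acta1 and Cdkn1a, may be understated, which was not tested. No paired analysis was possible because each group held 1 array and no result came from a test. The counts of 110 higher and 97 lower genes were 107 and 107 without centring, 107 and 93 after quantile normalization of the 4 time-course arrays, 110 and 92 after loess, 114 and 102 with no filter, 92 and 74 with both arrays at the level, 100 and 72 with the mean of all probe sets, and 99 and 79 without probe sets ending in _s_at, _x_at or _a_at. A filter on either array, added after seeing the data, gave 110 and 97. At 1.5-fold they were 371 and 519. The myosin heavy chain median of 0.87 was 0.34 with no filter and 1.18 with both arrays at the level; the neuronal median was -0.37 with the mean of all probe sets, and the Id median 0.81 without those probe sets. No median of a list or difference of a named gene past its threshold turned round: 36 of 45 list medians kept their sign under every setting run, and the other 9 had medians between -0.15 and 0.05. Of 377 values of named genes under these settings, 374 stayed on the same side of 2-fold. The others were Itgb3 at -0.89 and Sema5a at -0.73 with the mean of all probe sets, and H1f2 at 0.18 without those probe sets. The causes were not tested.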

Other observations

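Both groups in this paragraph were listed after their values had been seen, so their counts are descriptions. Of 14 kept histone genes, 13 stood above 0 and 3 were at least 2-fold higher at day 4 than at day 2 (median 0.26). H1f2, a linker histone, read 10.69, 11.79, 12.01 and 13.75 in growth medium and at days 0, 2 and 4 (1.76), though its other probe sets ran from 0.18 to 1.97. H2aw and H2bc22, core histones, read 8.66 and 10.05 and 8.68 and 9.75 at days 2 and 4 (1.40 and 1.09, with 0.78 from the other H2aw probe set). The replication genes, which are expressed along with histones in dividing cells, had a median of -0.24. Of 9 kept coagulation genes, 3 were at least 2-fold lower: Thbd, the thrombin receptor thrombomodulin, at 11.64 and 10.07 (-1.56), F3, tissue factor, at 10.04 and 8.55 (-1.47), and Procr, the protein C receptor, at 8.43 and 6.97 (-1.43).

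Genes among the largest differences but on no list described above were also measured. Tceal7, a small nuclear protein, read 6.86, 7.97, 9.66 and 12.41 over the time course (2.77), and Cap2, an actin-binding protein of muscle, 7.71, 8.54, 10.07 and 12.20 (2.14, with 2.18 from its other probe set). Fgf13, an intracellular relative of the fibroblast growth factors, read 6.19, 5.94, 7.53 and 9.78 (2.27, with 0.69 from its other probe set). Serpinb9g, a serpin, read 7.84, 7.08, 7.38 and 10.38 (3.02). Fgf13 and Serpinb9g passed the level on the day 4 array alone and were kept only through that array. On the lower side, Car8, a protein related to carbonic anhydrases, read 8.74, 9.77, 10.14 and 7.23 (-2.89), but its other probe sets gave -0.38 and -0.26. S1pr3, a receptor for sphingosine 1-phosphate, read 9.61, 10.79, 10.11 and 8.05 (-2.05), and its other probe sets gave -1.13 and -0.19.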
